A study of Homo sapiens with 9 samples.

Results

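The libraries described here are the 3 of MEG-01 cells treated with PMA and the 3 of untreated MEG-01 cells, chosen by their labels from the 9 libraries of a series whose other 3 were treated with As2S2 (arsenic disulfide). MEG-01 is an established human megakaryoblast line, derived from a chronic myeloid leukaemia, so all groups share the genome of 1 leukaemic line. PMA is phorbol 12-myristate 13-acetate. The labels give no dose, treatment time or vehicle, and do not say whether the replicates were separate cultures, so the p-values rest on the differences among these samples alone, and these could be technical. By its title the series asks whether As2S2 acts through SRC, MEK and ERK on megakaryocyte and platelet formation. PMA stands in it as a second treatment of the same cells.

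Phorbol esters take the place of diacylglycerol and switch on several isoforms of protein kinase C. These kinases feed the RAS, RAF, MEK and ERK cascade, whose early targets include the AP-1 factors FOS and JUN, the EGR factors and the phosphatases and adaptors that damp ERK. Megakaryoblasts treated with phorbol esters are known to stop dividing, spread on the dish and take on megakaryocyte features. A mature megakaryocyte makes the fibrinogen receptor (ITGA2B with ITGB3), the von Willebrand receptor (GP1BA, GP1BB, GP9), the platelet tubulin TUBB1 and alpha granules filled with secreted proteins.

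PMA changed most of the measured transcriptome. Of 14170 genes tested in the 6 libraries, 4539 (32.0%) were higher with PMA and 4575 (32.3%) were lower at an adjusted p under 0.05 (edgeR's quasi-likelihood test, Benjamini-Hochberg adjustment), 64.3% in all. These shares are the background for each count of list members below. Groups without overlap were as common: 34.5% of tested genes were higher with PMA in this way and 34.4% were lower. A change of at least 1 on the log2 scale was reached by 1666 (11.8%) of the higher and 1298 (9.16%) of the lower genes. Levels are in CPM, a gene's share of its library's counts after TMM scaling, in counts per 1e6, and errors are SDs over 3 libraries unless a value is called an SE. The scaling sets the median gene to no change. With plain library totals, a setting added after seeing the data, the median log2 fold change was -0.26, with 2983 genes higher and 6436 lower. On the deposited TPM scale the median ratio was -0.44, so a small rise in CPM can be a fall in TPM: 1141 of 4527 genes that rose had a lower mean TPM with PMA, against 11 of the 1654 that rose by at least 1.

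Total counts lay between 18200501 and 20366870 per library. The first principal component of log2 CPM, with 83.1% of the variance, separated the groups. On the second (5.81%) control replicate 2 lay at -30.9, against 18.4 and 10.8 for the other controls, and values without it are given below where they change a call. The log2 fold change moved with transcript length. From the shortest to the longest of 5 length classes its median went from 0.35 to -0.32, and 47.6% of the shortest but 18.7% of the longest genes rose. Control libraries also differed among themselves in this respect. Deviations of control replicates 1 to 3 from their group mean had a Spearman rho with length of 0.35, -0.36 and 0.15. With GC content it was -0.41, 0.57 and -0.43. In the PMA libraries both lay between -0.07 and 0.09. Values with the length trend removed, also added after seeing the data, are given for some lists below. The part of length in each result was not tested beyond that.

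**Figure D1:**
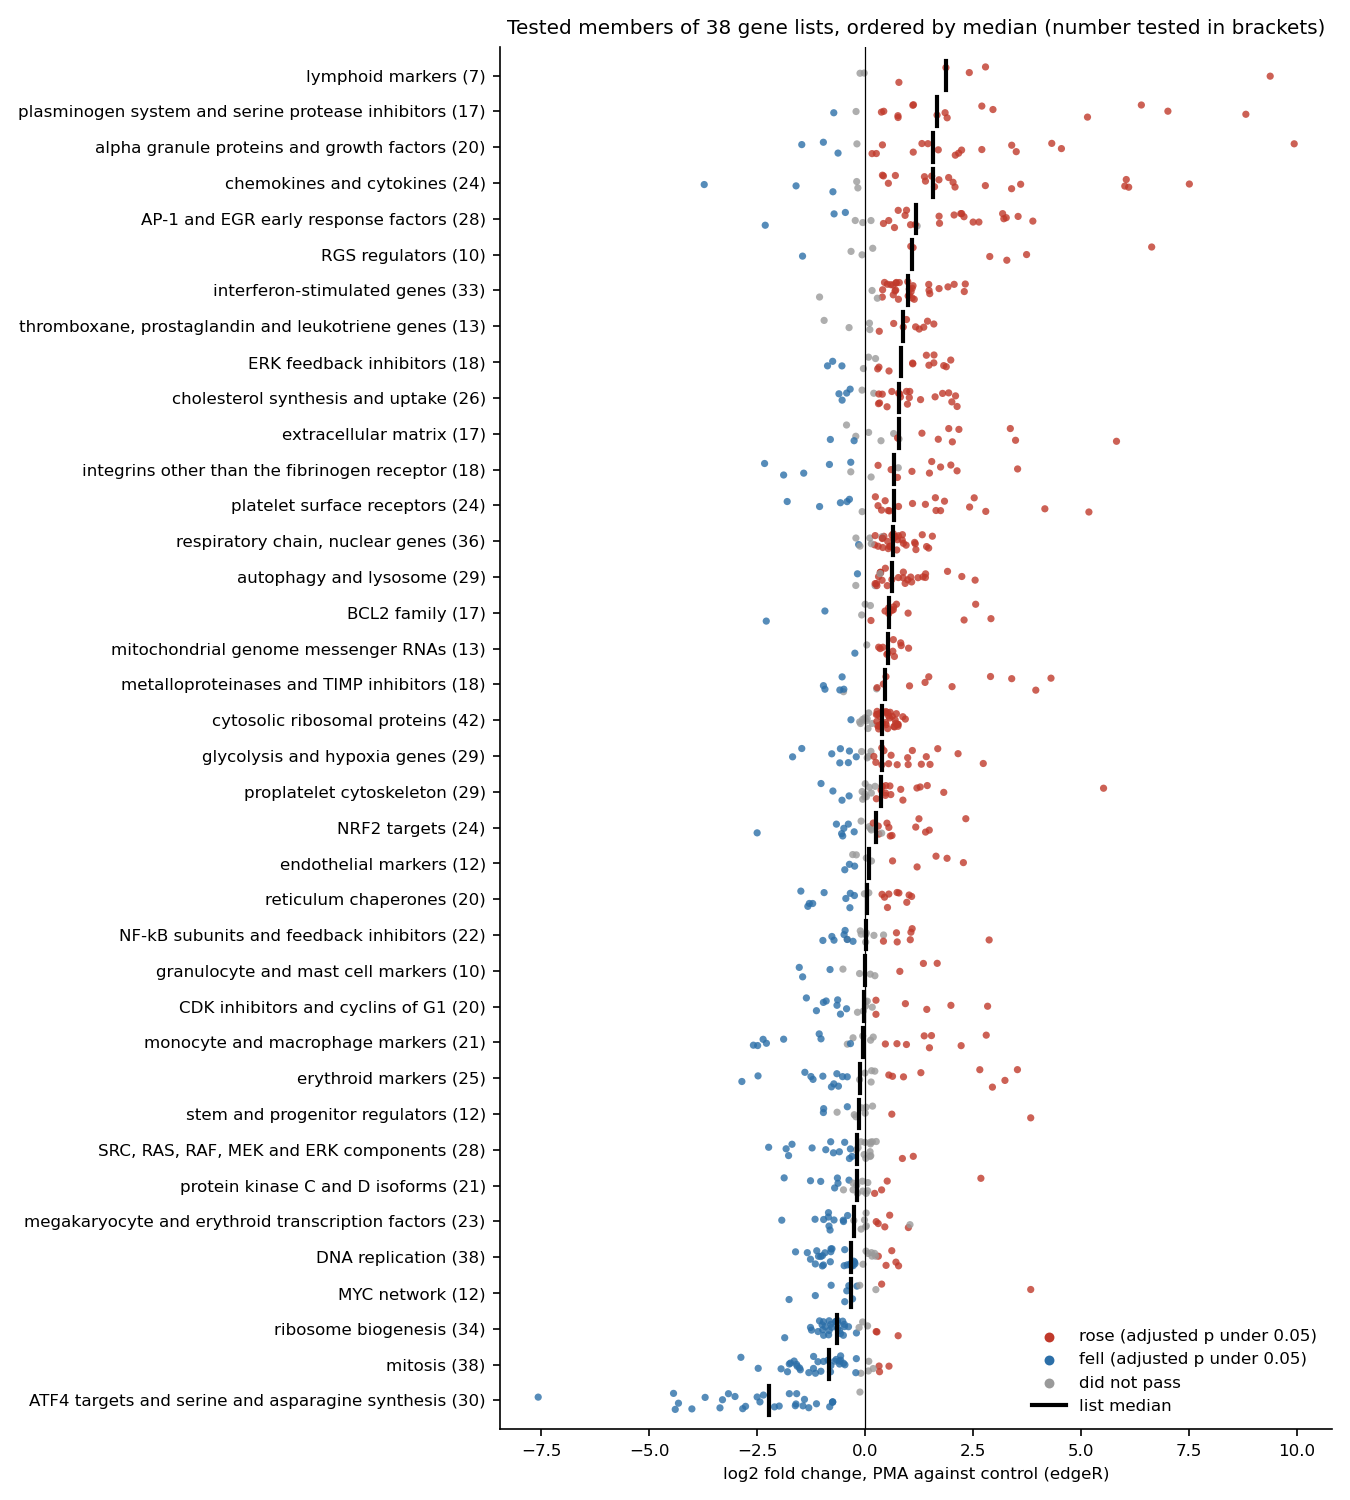
Log2 fold change of PMA against control (x axis) for each tested member of 38 gene lists (rows, ordered by their median, which the black bar marks), coloured by whether the gene rose, fell or did not pass edgeR's test. ATF4 targets lie at the bottom with a median of -2.22 and plasminogen, alpha granule and chemokine genes near the top. PDGFB and IL11 had 0 control counts, so their points at 9.94 and 7.51 depend on edgeR's prior count.

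Among the genes with the highest fold changes were a granule protease, protease inhibitors and a hormone. GZMB (ENSG00000100453), the serine protease granzyme B, held 0.325, 0.354 and 0.132 CPM in control replicates 1 to 3 and 182, 187 and 176 CPM in PMA replicates 1 to 3. It went from near the limit of detection, 17 counts over all control libraries, to 9561 counts, and rose by 9.38 ± 0.14 on the log2 scale (± SE, with an adjusted p of 8.22e-14 by edgeR). SERPINB2 (ENSG00000197632), the inhibitor of plasminogen activators known as PAI-2, stood at 2.18, 1.77 and 2.02 CPM in control and at 909, 954 and 853 CPM with PMA, a change of 8.82 ± 0.10. All 3 PMA libraries of both genes lay far above all 3 controls. STC1, the calcium-regulating hormone stanniocalcin 1, went from 2.70 ± 0.128 to 430 ± 18.8 CPM (n = 3 each, log2 fold change 7.31 ± 0.08). A2M, the broad protease trap alpha-2-macroglobulin, went from 4.27 ± 0.560 to 551 ± 16.7 CPM (7.02 ± 0.09). Both also had groups that did not overlap. This was required of every gene taken as highest, GZMB and SERPINB2 included.

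Other genes with high fold changes were, in order, the surface protein gene LY6G6C (9.17 ± 0.22), the organic anion transporter SLCO2B1 (7.53 ± 0.33), the synaptic adhesion protein LRRC4B (7.33 ± 0.27) and RAMP1 (6.96 ± 0.30), a partner of calcitonin-family receptors. Next came the actin-binding coronin CORO2B (6.96 ± 0.34), the receptor tyrosine kinase AXL (6.70 ± 0.33), the actin-binding XIRP1 (6.64 ± 0.27), RGS1 (6.64 ± 0.23), TFPI2 (6.40 ± 0.14) and the chemokine CCL4 (6.11 ± 0.15). Several rest on very few control reads: LY6G6C held 7 counts over the 3 control libraries, SLCO2B1 4, LRRC4B and CORO2B 5, and RAMP1 and AXL 6. Their PMA libraries held between 548 and 3518. The size of such a fold change is therefore less certain than its direction.

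Phorbol esters are known for acting through AP-1, whose usual site has G or C in the middle of TGANTCA. The search used a looser form with any base at N, which as a pattern reads the same on both strands. The shares below therefore also count forms with A or T at N, such as TGAATCA. In the 250 bases before the RefSeq start (GRCh38.p14), 6.6% of 27305 promoters held this motif, 3.93% of the 10464 tested genes with a matched promoter, and 4.87% of 3349 that rose. Of 88 matched genes that rose by at least 4 on the log2 scale 11 (12.5%) held it, as did 3.19% of 3539 genes that fell, 6 of 130 (4.62%) that fell by at least 2, and 3 of 24 (12.5%) matched genes of the ATF4 list described below, nearly all of which fell. These are descriptions of letters in a window, without a test. The stretches below are the 7 with the highest fold change among eligible risen genes that hold the motif in the groups described (highest fold changes, early response, ERK feedback, metalloproteinases, plasminogen). By the rule for showing promoters, genes of a single chromosome were left out and could not be among these 7. The motif is in capitals and each stretch is read 5′ to 3′ along the gene's strand. The motif begins 214 bases before the start of GZMB (chr14:24634361-24634440, minus strand), 102 before SERPINB2 (chr18:63887567-63887646, plus), 238 before XIRP1 (chr3:39192766-39192845, minus), 87 before TFPI2 (chr7:93890797-93890876, minus), 67 before MMP10 (chr11:102780652-102780731, minus), 60 before the ERK inhibitor SPRED3 (chr19:38389695-38389774, plus) and 186 before PLAUR (chr19:43670312-43670391, minus).
GZMB: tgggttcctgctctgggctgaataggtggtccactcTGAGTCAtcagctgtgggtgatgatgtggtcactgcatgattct
SERPINB2: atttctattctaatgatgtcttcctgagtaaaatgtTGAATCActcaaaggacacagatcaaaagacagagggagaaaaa
XIRP1: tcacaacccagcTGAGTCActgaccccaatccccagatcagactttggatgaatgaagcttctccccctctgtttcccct
TFPI2: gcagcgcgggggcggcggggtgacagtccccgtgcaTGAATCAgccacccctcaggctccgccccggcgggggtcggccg
MMP10: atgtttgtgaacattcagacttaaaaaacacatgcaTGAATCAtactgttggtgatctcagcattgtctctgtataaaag
SPRED3: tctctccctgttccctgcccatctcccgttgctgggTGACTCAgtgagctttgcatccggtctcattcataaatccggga
PLAUR: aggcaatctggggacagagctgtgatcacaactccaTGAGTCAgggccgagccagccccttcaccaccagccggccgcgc
GZMB, XIRP1 and PLAUR share the form TGAGTCA, of which the TGACTCA of SPRED3 is the opposite strand, and SERPINB2, TFPI2 and MMP10 share TGAATCA.

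**Figure D2:**
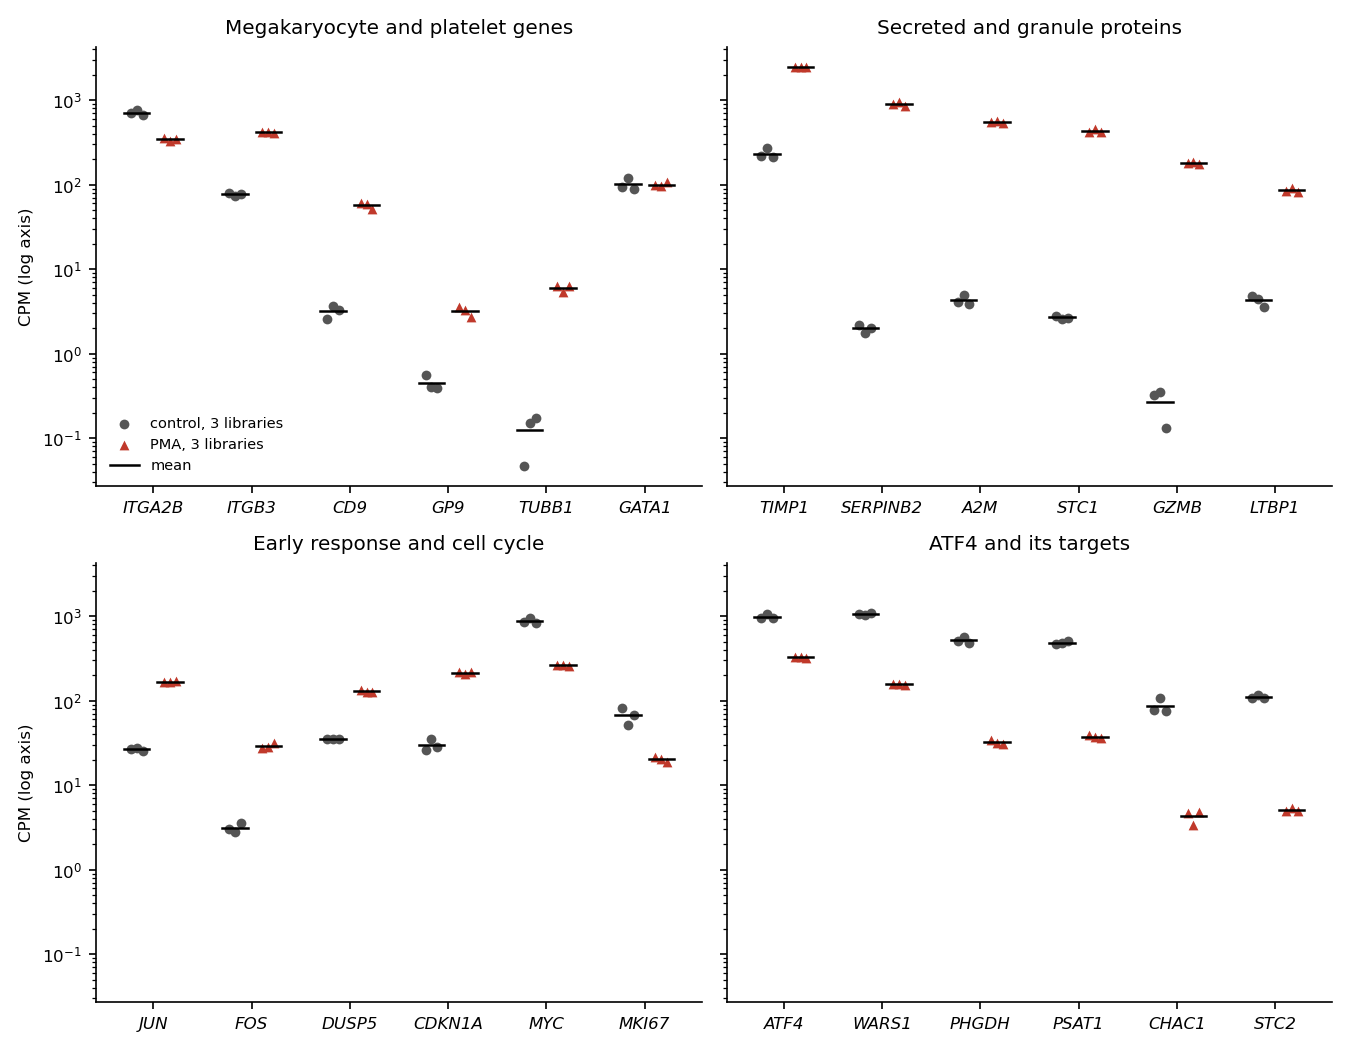
CPM on a log axis (y) of 24 genes in each control library (grey circles) and each PMA library (red triangles), with the group mean as a bar, in 4 panels by role. ITGB3 rises and ITGA2B falls, GATA1 overlaps between the groups, and the ATF4 genes lie lower in all 3 PMA libraries.

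Of 21 tested genes of protein kinase C and D, diacylglycerol kinases and RASGRP exchange factors, 4 rose and 7 fell (median -0.19, and -0.04 with the length trend removed, where 5 rose and 6 fell). With library totals 1 rose and 13 fell. PRKCB, a conventional isoform, stood at 219, 181 and 201 CPM in control and 245, 237 and 220 CPM with PMA (0.22 ± 0.07, adjusted p = 0.0172, edgeR). PRKCA changed by 0.51 ± 0.11, PRKCD by 0.38 ± 0.07 and PRKCE by -0.37 ± 0.11. All of these were below 1 in size. The mean TPM of PRKCB and PRKCD was lower with PMA (28.6 to 26 and 16.2 to 15.4). The call of PRKCB was lost without control replicate 3, PMA replicate 1 or PMA replicate 2 (lowest 0.19), and with library totals it turned to -0.04. That of PRKCE was lost without PMA replicate 1 or 3 and with the length trend removed (-0.08), and those of PRKCA and PRKCD with library totals (0.25 and 0.12). RASGRP3, an exchange factor for RAS that binds diacylglycerol and phorbol esters, rose from 3.0 ± 0.640 to 19.3 ± 1.38 CPM (2.68 ± 0.15), while its relative RASGRP2, which serves RAP1 in platelets, fell (-1.26 ± 0.12). RASGRP4, chosen after its values were seen, also fell (-1.87 ± 0.33), as did the kinases PRKD3 (-1.03 ± 0.13) and DGKZ (-0.70 ± 0.10), the latter a diacylglycerol kinase.

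Of 28 tested genes of the SRC, RAS, RAF, MEK and ERK cascade, which the series title names, 2 rose and 13 fell, with a median of -0.18. With the length trend removed 8 rose and 12 fell, with a median of 0.01. SRC (ENSG00000197122) held 30.6, 31.9 and 28.9 CPM in control and 21.6, 25.5 and 26.8 CPM with PMA (-0.30 ± 0.10, adjusted p = 0.0156, edgeR). Its groups did not overlap, but the call was lost with the length trend removed (-0.10) and without PMA replicate 1 (-0.22). MAP2K1, the gene of MEK1, stood at 0.13 ± 0.07 (adjusted p = 0.131, edgeR) and MAPK3, the gene of ERK1, at 0.26 ± 0.11 (0.0609). Neither passed. MAPK3 did pass in 6 other settings, at 0.20 to 0.39. MAP2K2, which encodes MEK2, fell by a small amount (-0.47 ± 0.10). Some adaptors and exchange factors changed by more. GAB2 fell from 145 ± 13.7 to 40.8 ± 1.01 CPM (-1.83 ± 0.08) and SOS1 from 92.7 ± 13.2 to 27.2 ± 0.913 CPM (-1.77 ± 0.10), whereas the adaptor SHC1 and the kinase PTK2B rose (0.87 ± 0.06 and 1.12 ± 0.07). These are transcript levels and say nothing of kinase activity.

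Of 18 genes that damp ERK signalling 12 rose and 3 fell, with a median of 0.83, against 32.0% and 32.3% of all tested genes. DUSP5, a nuclear ERK phosphatase, held 35.6, 35.1 and 34.9 CPM in control and 135, 127 and 127 CPM with PMA (1.88 ± 0.06, adjusted p = 1.08e-10, edgeR). All 3 PMA libraries were above all 3 controls. DUSP4 rose by 1.60 from a low level, and the Sprouty adaptors SPRY1, SPRY2 and SPRY4 by 1.48, 1.59 and 1.10. DUSP6, the cytosolic ERK phosphatase, moved by only 0.29 ± 0.05 and had a lower mean TPM with PMA (40.8 in control, 36.4 with PMA). Its call was lost with library totals (0.03).

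Of 28 AP-1, EGR and related genes 21 rose and 3 fell (median 1.18). JUN (ENSG00000177606) held 27.0, 27.7 and 25.7 CPM in control and 165, 166 and 170 CPM with PMA (2.64 ± 0.06, adjusted p = 7.23e-12, edgeR). FOS (ENSG00000170345) held 3.06, 2.78 and 3.55 CPM in control and 27.7, 28.4 and 31.6 CPM with PMA (3.21 ± 0.12, adjusted p = 3.54e-10, edgeR). For both partners of AP-1 the groups were far apart. JUNB, FOSL1 and EGR1 rose by about 1 or less (1.05, 0.93 and 0.68). The pleckstrin-homology protein PHLDA1 (3.89), the pseudokinase TRIB1 (2.29) and the RNA-binding ZFP36L1 (2.22) rose more. FOSB (3.19), EGR3 (3.27) and the orphan receptor NR4A3 (3.55), chosen after their values were seen, also rose by more than EGR1, and BATF3, chosen the same way, fell (-2.31).

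Platelet surface genes mostly rose, from levels that differ widely between genes. Of 24 tested receptors 18 rose and 5 fell, with a median of 0.67. ITGB3 (ENSG00000259207), which encodes the beta subunit for fibrinogen binding, held 80.4, 74.1 and 77.4 CPM in control and 420, 414 and 409 CPM with PMA (2.42 ± 0.06, adjusted p = 6.65e-12, edgeR). Its partner ITGA2B (ENSG00000005961) went the other way, from 698, 771 and 663 CPM to 353, 328 and 347 CPM (-1.05 ± 0.07, adjusted p = 2.78e-08, edgeR). In neither gene did the groups overlap. Per transcript length, ITGA2B stood at 190 TPM and ITGB3 at 11.7 TPM in control, and at 68.3 and 51.5 TPM with PMA.

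Of the von Willebrand receptor chains GP9 and GP1BB rose, and the rise of GP1BA depended on the setting. GP1BA held 11.4, 11.0 and 11.8 CPM in control and 15.1, 13.2 and 13.9 CPM with PMA (0.30 ± 0.11, adjusted p = 0.0246, edgeR), a call lost with DESeq2 (adjusted p = 0.0579), without control replicate 1 (0.0684, edgeR) and in 6 other settings. GP9 rose from 0.452 ± 0.0911 to 3.19 ± 0.443 CPM (2.80 ± 0.29), or 29 to 167 counts over 3 libraries. GP1BB, chosen after its values were seen, rose from 9 to 282 counts (5.19 ± 0.35). Among membrane proteins that platelets share with other cells, the tetraspanin CD9 rose from 3.18 ± 0.561 to 57.0 ± 4.88 CPM (4.17 ± 0.13), the granule tetraspanin CD63 by 1.40 ± 0.06 and the adhesion receptor PECAM1 by 1.64 ± 0.08. CD36, the thrombospondin receptor, fell (-1.80) and was also chosen after its values were seen. P2RY12 and TREML1 had 0 counts in all 6 libraries, and CLEC1B and GP5 were under the count filter.

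Alpha granule proteins and growth factors rose in 16 of 20 tested genes and fell in 3 (median 1.58). Another 6 were under the count filter, and without it 14 of 25 rose and 5 fell (median 1.07). PDGFB at its lower bound still lies above the median, so that bound could not move it. TIMP1, an inhibitor of metalloproteinases that platelets store, held 220, 270 and 210 CPM in control and 2465, 2467 and 2440 CPM with PMA (3.40 ± 0.09, adjusted p = 1.15e-11, edgeR). The granule proteoglycan SRGN rose from 149 ± 3.75 to 633 ± 27.7 CPM (2.09 ± 0.06), the matricellular SPARC by 1.70 ± 0.06, and LTBP1, which holds latent TGF-beta, from 4.29 ± 0.620 to 86.0 ± 4.92 CPM (4.33 ± 0.11). Every PMA library of these 4 genes was above every control library. PDGFB, chosen after its values were seen, had 0 counts in all 3 controls and 108, 86 and 139 counts in PMA replicates 1 to 3. Set against a floor of 3 counts over the control group it was at least 135-fold higher. PPBP, the precursor of platelet basic protein and chosen in the same way, rose from 34 to 660 counts (4.55 ± 0.28). Its neighbour in function PF4 had 1 count in control and 2 with PMA, and VWF had 20 and 16, both under the count filter and not tested. F5, also under the filter and chosen after its values were seen, had 28 and 3. VEGFA fell (-1.46).

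Of 29 cytoskeleton genes of proplatelet formation 16 rose and 4 fell (median 0.37). With library totals 14 rose and 10 fell (median 0.11). TUBB1 (ENSG00000101162), the tubulin of platelets, held 0.0464, 0.152 and 0.175 CPM in control and 6.38, 5.39 and 6.33 CPM with PMA (5.52 ± 0.32, adjusted p = 1.53e-08, edgeR). It rose from 8 to 318 counts and reached 1.16 TPM. The myosin light chains MYL6 and MYL12B rose by 1.82 ± 0.06 and 1.2 ± 0.05 and vinculin, VCL, which links integrins to actin, by 1.44 ± 0.08. ACTB did not pass (-0.01 ± 0.08), but it passed without control replicate 2 at 0.10 and, in the opposite direction, with library totals at -0.26. Genes of prostaglandin and thromboxane metabolism rose in 9 of 13 cases and fell in 0 (median 0.89). PTGS1, the platelet cyclooxygenase, rose from 252 ± 15.9 to 648 ± 6.96 CPM (1.36 ± 0.06), HPGD, which degrades prostaglandins, by 1.26 ± 0.06, and PTGS2 by 1.45 ± 0.17 from a low level.

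The transcription factors of the lineage did not follow the surface genes. Of 23 tested 5 rose and 11 fell, with a median of -0.26. With the length trend removed 7 rose and 11 fell (median -0.16), and with library totals 3 rose and 16 fell. GATA1 (ENSG00000102145), which megakaryocytes and red cells both need, held 94.0, 119 and 89.6 CPM in control and 98.2, 95.6 and 106 CPM with PMA (-0.01 ± 0.10, adjusted p = 0.920, edgeR). GATA2 was as level (0.02 ± 0.06). With library totals they stood at -0.27 and -0.23 and passed. The libraries of both genes overlapped between the groups, with control replicate 2 highest in each, and without that library GATA1 stood at 0.11 and did not pass. FLI1 rose by 0.46 ± 0.07 and TAL1 by 0.31 ± 0.05, though both had slightly lower mean TPM with PMA and the call of TAL1 was lost with library totals (0.05). RUNX1 fell from 165 ± 2.66 to 91.8 ± 2.45 CPM (-0.85 ± 0.06), and so did NFE2 (-0.50 ± 0.08) and MYB, a progenitor factor, from 111 ± 11.1 to 57.2 ± 2.28 CPM (-0.96 ± 0.08). LMO2 rose (1.0 ± 0.06). KIT, the stem cell factor receptor, stood at -0.25 ± 0.11 (adjusted p = 0.0553, edgeR) and passed without control replicate 2 (-0.33), without a count filter (-0.29) and with library totals (-0.51). Of 12 stem and progenitor regulators 2 rose and 3 fell (median -0.15), and with library totals 2 rose and 7 fell.

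Of 25 tested erythroid genes 8 rose and 12 fell (median -0.13), and 7 rose and 14 fell with the length trend removed (median -0.32). HBG2 (ENSG00000196565), a fetal globin chain, held 2846, 3220 and 2924 CPM in control and 19565, 18806 and 18387 CPM with PMA (2.66 ± 0.07, adjusted p = 8.83e-12, edgeR). The embryonic HBE1 rose from 42.9 ± 2.44 to 495 ± 36.6 CPM (3.53 ± 0.07), the minor adult chain HBD from 2.61 ± 0.286 to 20.3 ± 2.2 CPM (2.95 ± 0.14) and HBG1 by 3.24 ± 0.12. HBG1 and HBG2 are near-identical and their counts were not whole, so the split between them is uncertain. The estimated count of each rose, but whether each copy rose cannot be told from it. By contrast BCL11A, the repressor of fetal globin genes, fell from 11.2 ± 0.539 to 2.96 ± 0.582 CPM (-1.93 ± 0.16). The embryonic HBZ had 0 counts. The major adult chains HBB and HBA1, chosen after their values were seen, did not pass (0.15 ± 0.13 and -0.13 ± 0.10). With the length trend removed they stood at -0.32 and -0.63 and passed, HBB narrowly (adjusted p = 0.0499, edgeR). HBB did not pass with the length and GC trends removed (-0.29, adjusted p = 0.0579, edgeR). HBA1 also passed with library totals (-0.38). Of the genes of the red cell membrane, those that fell included the anion exchanger SLC4A1 (-2.48) and its anchors EPB42 (-2.85) and ANK1 (-1.25), all 3 chosen after their values were seen. RHAG, a membrane protein of the Rh complex, rose (0.89 ± 0.06).

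**Figure D3:**
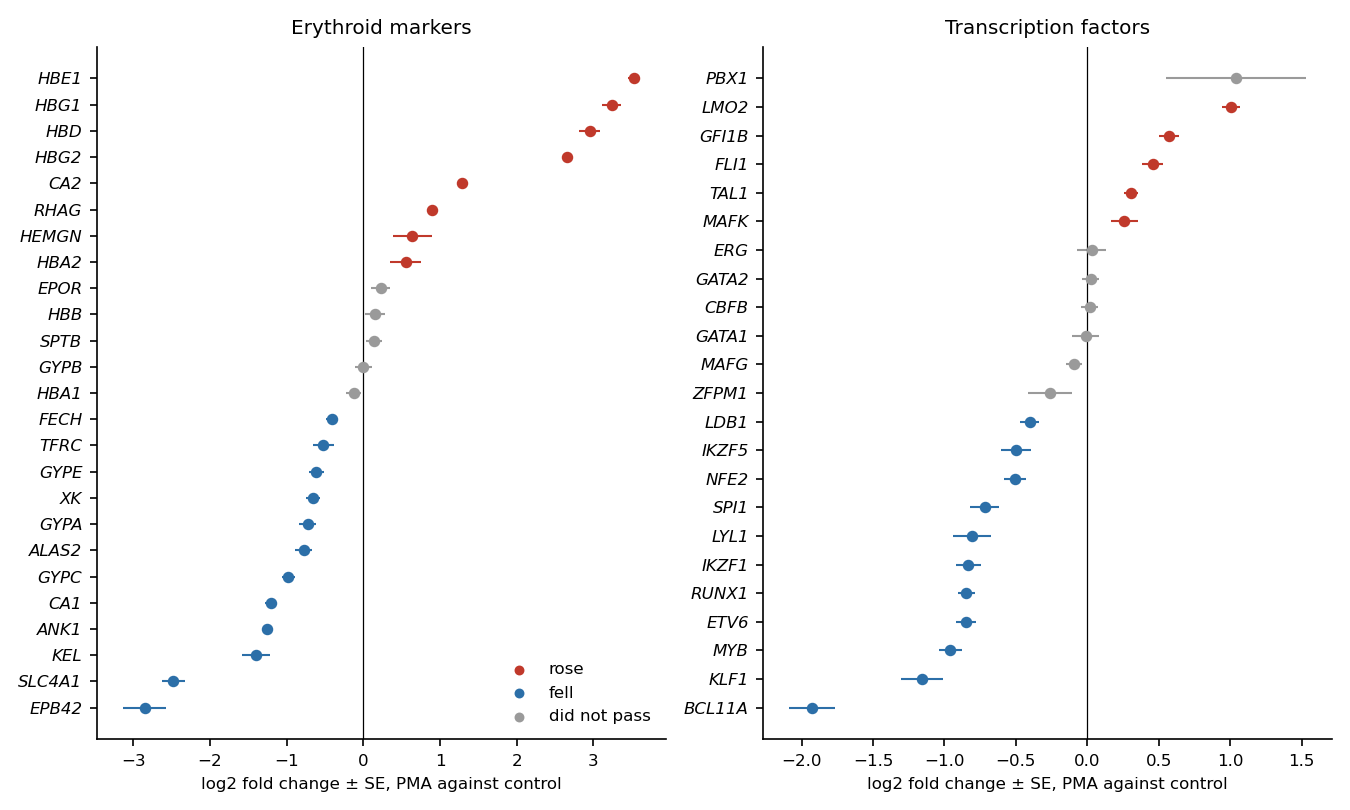
Log2 fold change ± SE of PMA against control (x axis) for 25 erythroid markers (left) and 23 lineage transcription factors (right), coloured by whether the gene rose, fell or did not pass. HBE1, HBG1, HBD and HBG2 lie at 2.66 or above, SLC4A1, EPB42 and ANK1 lie below 0, and GATA1 and GATA2 lie near 0.

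Proteases and their inhibitors rose beyond the genes already given. Of 17 genes of the plasminogen system and serine protease inhibitors 15 rose and 1 fell (median 1.67). PLAUR, the urokinase receptor, rose from 25.3 ± 0.765 to 91.4 ± 3.05 CPM (1.85 ± 0.07). TFPI2, an inhibitor of plasmin and other serine proteases, held 0.697, 0.809 and 0.833 CPM in control and 63.5, 73.6 and 62.2 CPM with PMA. The groups of TFPI2 did not overlap, as its place among the highest genes required, and every PMA library was far above every control. The activator PLAT, chosen after its values were seen, rose by 5.15 ± 0.23. Of 18 tested metalloproteinases and TIMPs 11 rose and 5 fell (median 0.45). Another 10 were under the count filter, and without it 11 of 28 rose and 6 fell (median 0.72). The collagenase MMP1 rose from 24.8 ± 2.05 to 186 ± 8.79 CPM (2.91 ± 0.08) and the stromelysin MMP10 from 1.72 ± 0.368 to 34.1 ± 3.31 CPM (4.31 ± 0.15), while TIMP3 fell (-0.58 ± 0.06).

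Of 17 tested matrix genes 9 rose and 2 fell (median 0.79). Another 18 were under the count filter, and without it 11 of 34 rose and 3 fell (median 0.73). The rises were led by the collagen chain COL1A1, from 12 to 580 counts (5.82 ± 0.24). The matricellular CCN1 (3.49 ± 0.11) and IGFBP5, which binds insulin-like growth factors (3.37 ± 0.11), followed. Integrins other than the fibrinogen receptor went both ways, with 10 of 18 up and 5 down (median 0.68). ITGB5, a partner of the vitronectin receptor chain, rose from 2.60 ± 0.158 to 30.2 ± 0.764 CPM (3.53 ± 0.11). The leukocyte integrins ITGAL and ITGAM fell (-2.33 ± 0.17 and -1.89 ± 0.13), as did ITGA4 (-1.42 ± 0.13). ITGA5 and ITGB1, which together bind fibronectin, were nearly level (0.30 ± 0.06 and 0.14 ± 0.10, the latter not past the test). The call of ITGA5 was lost with library totals (0.04), while ITGB1 passed with the length trend removed (0.35).

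Chemokines and cytokines rose in 19 of 24 tested genes and fell in 3 (median 1.58). Another 12 were under the count filter, and without it 22 of 36 rose and 3 fell (median 1.53). IL11 at its lower bound still lies above the median, so that bound could not move it. CCL3L3 held 4.88, 6.73 and 4.87 CPM in control and 364, 361 and 362 CPM with PMA (6.05 ± 0.10, adjusted p = 2.65e-13, edgeR), and CCL3 rose by 6.02 ± 0.18. These chemokine genes are near-identical copies, so the split of reads between them is uncertain. CXCL8, which attracts neutrophils, rose from 18.3 ± 1.57 to 193 ± 4.74 CPM (3.39 ± 0.08) and IL1B from 135 ± 6.60 to 357 ± 15 CPM (1.40 ± 0.06). IL11, a cytokine known to support megakaryocytes and chosen after its values were seen, had 0 counts in control and 13, 16 and 33 in PMA replicates 1 to 3, at least 25.1-fold higher than the floor of 3 counts over the group. OSM fell from 16.9 ± 2.57 to 1.29 ± 0.476 CPM (-3.72 ± 0.21). Subunits and inhibitors of NF-kB went both ways, 7 up and 7 down of 22 (median 0.01), and 6 up and 11 down with library totals. RELA did not pass (0.02 ± 0.07) except with library totals (-0.24). The inhibitor NFKBIA rose by 1.09 ± 0.11 and TRAF1 by 2.87 ± 0.16.

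Of 33 interferon-stimulated genes 30 rose and 0 fell (median 0.99). RSAD2, an antiviral enzyme, rose from 17.3 ± 1.01 to 85.2 ± 3.62 CPM (2.30 ± 0.08), IFI6 from 58.8 ± 11.0 to 246 ± 8.22 CPM (2.06 ± 0.10), IFI27 by 1.72 ± 0.07 and IFITM3 by 1.92 ± 0.10. The rises were moderate in size and spread over nearly the whole list. Among the regulators of G protein signalling 6 of 10 rose and 1 fell (median 1.09). RGS1 rose from 0.143 ± 0.0574 to 14.6 ± 0.376 CPM (6.64 ± 0.23) and RGS20 by 3.74 ± 0.13. RGS4, under the count filter and chosen after its values were seen, had 0 counts in control and 2, 19 and 13 with PMA, at least 13.8-fold higher than the floor.

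Genes of division fell with PMA. Of 38 mitosis genes 31 fell and 3 rose (median -0.83), and of 38 DNA replication genes 26 fell and 5 rose (median -0.33). MKI67, the proliferation marker, held 82.3, 51.0 and 67.1 CPM in control and 21.8, 20.2 and 18.7 CPM with PMA (-1.73 ± 0.15, adjusted p = 4.91e-07, edgeR). PLK1, a mitotic kinase, fell from 128 ± 9.62 to 43.1 ± 1.41 CPM (-1.57 ± 0.07), and so did TPX2 (-1.09 ± 0.09) and MCM3, a subunit of the replicative helicase, from 224 ± 10.3 to 106 ± 2.66 CPM (-1.08 ± 0.06). The 3 that rose in mitosis were PTTG1 (0.55), CDK1 (0.34) and AURKA (0.32), of which the latter pair was chosen after the values were seen and lost the call with library totals (0.08 and 0.07). Of 20 CDK inhibitors and G1 cyclins 6 rose and 8 fell (median -0.01), and 4 rose and 12 fell with library totals. CDKN1A (ENSG00000124762), the inhibitor p21, held 26.3, 35.4 and 28.3 CPM in control and 216, 208 and 218 CPM with PMA (2.84 ± 0.09, adjusted p = 9.81e-11, edgeR). The inhibitor CDKN2B rose by 1.43 ± 0.07. The D cyclins diverged: CCND1 rose from 42.5 ± 0.569 to 81.3 ± 0.129 CPM, CCND2 fell from 209 ± 12.5 to 95.8 ± 0.979 CPM, and CCND3 did not pass (-0.04 ± 0.08) except with library totals (-0.30).

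In the BCL2 family 12 of 17 rose and 2 fell (median 0.55). BCL2, the survival protein, fell from 41.9 ± 4.02 to 8.57 ± 1.54 CPM (-2.29 ± 0.13). BCL2L1, which megakaryocytes and platelets rely on, was nearly level (0.14 ± 0.06, adjusted p = 0.0495, edgeR), a call lost in most other settings and turned to -0.12 with library totals, MCL1 rose by 0.65 ± 0.07, and the BH3-only genes BMF and BIK rose by 2.56 ± 0.13 and 2.92 ± 0.20.

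MYC (ENSG00000136997) held 857, 952 and 841 CPM in control and 264, 265 and 254 CPM with PMA (-1.76 ± 0.06, adjusted p = 1.59e-10, edgeR), and 8 of 12 genes of its network fell against 2 that rose (median -0.33). MYCN rose, though only from 6 to 75 counts (3.84 ± 0.45). Genes for making ribosomes fell in 28 of 34 cases and rose in 3 (median -0.66). POLR1A, the largest subunit of RNA polymerase I, fell from 102 ± 6.31 to 43.1 ± 0.579 CPM (-1.24 ± 0.07) and the methyltransferase fibrillarin, FBL, from 1246 ± 41.6 to 641 ± 34.2 CPM (-0.96 ± 0.06). The proteins of the ribosome itself went up in CPM, with 32 of 42 higher and 1 lower (median 0.39), for example RPS24 (0.93 ± 0.06). These transcripts are short, and with the length trend removed 16 rose and 13 fell, with a median of -0.03.

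The lowest median of the 39 lists was that of ATF4 targets and serine and asparagine synthesis, which holds ATF4 itself. ATF4 is the transcription factor that answers shortage of amino acids. Whether it drives the listed genes in these cells was not tested. Of 30 tested 29 fell and 0 rose, with a median of -2.22, where 32.3% of all tested genes fell. With the length trend removed 29 fell, 1 rose and the median was -2.02. ATF4 (ENSG00000128272) itself held 945, 1061 and 955 CPM in control and 328, 329 and 320 CPM with PMA (-1.60 ± 0.06, adjusted p = 2.94e-10, edgeR). The enzymes of serine synthesis fell further. PHGDH held 504, 571 and 479 CPM in control and 34.3, 31.5 and 30.7 CPM with PMA (-4.01 ± 0.08, adjusted p = 1.69e-12, edgeR), and PSAT1, the next enzyme of the pathway, fell from 486 ± 20.7 to 37.3 ± 1.41 CPM (-3.70 ± 0.06). No PMA library of either came near a control library.

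Of the genes with the lowest fold changes several belong to the same list. INHBE, an inhibin chain made by stressed cells, went from 1232 counts over the control libraries to 5 (-7.57 ± 0.29), STC2 from 110 ± 4.61 to 5.09 ± 0.265 CPM (-4.44 ± 0.09), and the arginine-synthesis enzyme ASS1 from 97.3 ± 10.2 to 4.62 ± 0.499 CPM (-4.40 ± 0.11). CHAC1, which degrades glutathione, fell from 86.6 ± 17.2 to 4.32 ± 0.814 CPM (-4.32 ± 0.17). The tryptophan tRNA synthetase WARS1 fell from 1061 ± 18.3 to 156 ± 2.48 CPM (-2.77 ± 0.05). The asparagine synthetase ASNS, chosen after its values were seen, fell as well (-3.01 ± 0.06). The others among the lowest were the hormone ADM2 (-4.24), the antisense RNA CHRM3-AS2 (-4.17), HOXB9 (-4.17), NIBAN1 (-3.99), the sialyltransferase ST6GALNAC1 (-3.93), the glycine transporter SLC6A9 (-3.77), OSM, the mitochondrial enzyme PCK2 (-3.56) and the collagen galactosyltransferase COLGALT2 (-3.54). No source used here says whether counting used strand. Whether reads of CHRM3-AS2 were told apart from those of an overlapping gene is therefore not known.

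ATF4 and its C/EBP partners bind letters of the form TGATGNAA. In the 250 bases before the RefSeq start this motif, searched on both strands, stood in 3.19% of 27305 promoters, 1.48% of 10464 tested genes, and 11 of 130 (8.46%) genes that fell by at least 2 on the log2 scale. It stood in 1.44% of all 3539 matched genes that fell and in 4 of 88 (4.55%) that rose by at least 4. In the ATF4 list 2 of the 24 genes with a matched promoter held it, and these are shown, a choice made after seeing the data. It begins 209 bases before the start of CHAC1 (chr15:40953226-40953305, plus strand, motif on the minus strand) and 68 before that of ASNS (chr7:97872433-97872512, minus strand, motif on the gene's own strand). Capitals mark the motif.
CHAC1: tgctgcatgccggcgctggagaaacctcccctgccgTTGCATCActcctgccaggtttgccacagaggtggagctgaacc
ASNS: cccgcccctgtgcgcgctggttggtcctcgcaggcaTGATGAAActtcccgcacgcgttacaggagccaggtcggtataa
Its absence from the other windows says only that these letters are not there.

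Chaperones of the endoplasmic reticulum, a list close to that of ATF4, did not move one way: 9 rose and 9 fell of 20 (median 0.04). HERPUD1 and XBP1 fell (-1.49 ± 0.09 and -1.21 ± 0.07), whereas MANF and CALR rose (1.08 ± 0.07 and 0.55 ± 0.06). Of 24 NRF2 targets 12 rose and 7 fell (median 0.25, 0.12 with the length trend removed and -0.01 with library totals, where 9 rose and 8 fell). FTL, the light chain of ferritin, rose from 3650 ± 557 to 10238 ± 127 CPM (1.49 ± 0.09) and SQSTM1, an autophagy receptor, by 1.40 ± 0.07.

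Of 26 cholesterol genes 20 rose and 4 fell (median 0.79). SQLE, squalene epoxidase, rose from 285 ± 8.74 to 1091 ± 38.9 CPM (1.94 ± 0.06), MSMO1 by 2.01 ± 0.07 and INSIG1, which holds back the SREBP factors, by 1.29 ± 0.07. Of 29 lysosome and autophagy genes 25 rose and 1 fell (median 0.62). The protease CTSL rose from 102 ± 5.84 to 596 ± 14.5 CPM (2.55 ± 0.06) and the galactosidase GLA from 38.4 ± 0.743 to 182 ± 2.94 CPM (2.24 ± 0.06). Both lists kept their medians within 0.1 when the length trend was removed (0.73 and 0.64). Glucose genes were mixed, with 17 of 29 up and 8 down (median 0.39): the transporter SLC2A3 rose by 1.68 ± 0.05, while hexokinase 2, HK2, fell from 128 ± 8.53 to 40.1 ± 3.53 CPM (-1.68 ± 0.08).

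Nuclear genes of the respiratory chain rose in 30 of 36 cases and fell in 1 (median 0.64, and 0.34 with the length trend removed, where 26 rose and 7 fell). UQCRB, a subunit of complex III, rose by 1.47 ± 0.06 and NDUFB3, of complex I, by 1.56 ± 0.06. Of 13 messenger RNAs of the mitochondrial genome 11 rose and 1 fell (median 0.53, and 0.22 with the length trend removed). MT-CO3 went from 14629 ± 1490 to 23452 ± 544 CPM (0.68 ± 0.07). The mitochondrial genome took 8.04 ± 0.150% of counts in control and 10.1 ± 0.112% with PMA (n = 3 each).

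**Figure D4:**
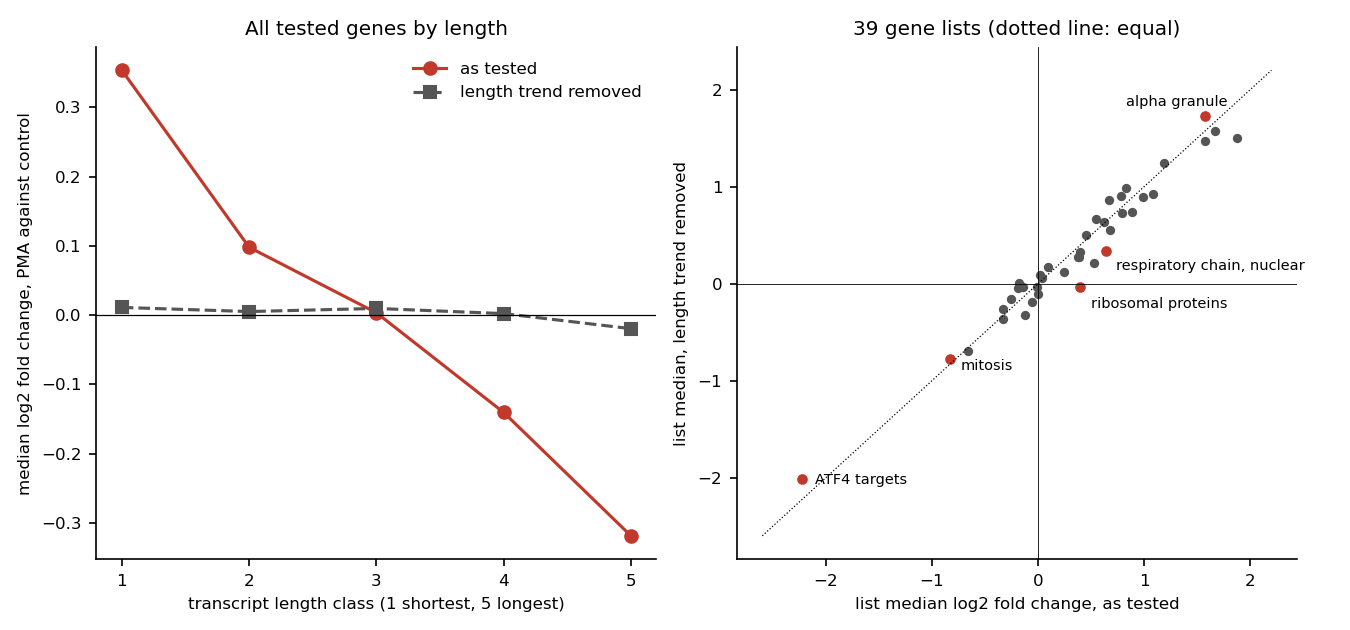
Left: median log2 fold change of PMA against control (y axis) in 5 classes of transcript length (x axis), as tested and with the length trend removed. Right: median of each of 39 gene lists as tested (x axis) against the median with the trend removed (y axis). Cytosolic ribosomal proteins move from 0.39 to -0.03, while ATF4 targets stay near -2.

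Markers of other blood cells were set beside these results, since phorbol esters also drive some myeloid lines towards macrophages. Of 21 tested monocyte and macrophage markers 8 rose and 8 fell (median -0.05, and -0.19 with the length trend removed), and the summed level of the list ran from 931 to 1028 CPM in control and from 1398 to 1417 CPM with PMA. CD14 did not pass (1.24 CPM in control, 1.01 CPM with PMA), CSF1R rose from a low level (0.96 ± 0.25), ITGAM fell as above and the myeloid factor SPI1 fell (-0.72 ± 0.10). CD68, FCER1G and VSIG4 rose (1.37 ± 0.06, 2.23 ± 0.09 and 2.81 ± 0.12). C1QB, CD163, MARCO and TLR4 had 0 counts. In bulk RNA a change in the mix of cells and a change of RNA within each cell cannot be told apart. The part of such cells in the results above was not tested.

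Of 10 granulocyte and mast cell markers 3 rose and 3 fell (median -0.00), with 12 more under the count filter, and their summed level ran from 251 to 256 CPM in control and from 287 to 300 CPM with PMA. S100A12 had 0 counts. Of the lymphoid markers 7 were tested, of which 5 rose, GZMB among them, and 15 were under the filter. Their summed level ran from 119 to 133 CPM in control and from 292 to 313 CPM with PMA, most of the gain being GZMB. MS4A1 and PAX5 had 0 counts, and PRF1, the pore-forming partner of granzyme B in killer cells, stood at 0.508 CPM in control and 0.499 CPM with PMA (chosen after its values were seen). Of 12 endothelial markers 5 rose and 3 fell (median 0.09), with a summed level from 595 to 718 CPM in control and from 868 to 872 CPM with PMA. CLDN5 and SOX17 had 0 counts.

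Set directly against As2S2 in a fit of all 9 libraries, PMA gave 4463 genes that were higher (30.6%) and 4503 that were lower (30.9%) of 14592 tested, 61.4% in all. The comparison uses the same PMA libraries as the one with control, so the values are given side by side. An As2S2 library was known from earlier results to stand apart from its group, and it enters the spread of this fit. Without As2S2 replicate 1, 2 or 3 the genes called were 8978, 8271 and 8361. GZMB stood at 0.275 CPM with As2S2, close to its control level, and differed from PMA by 9.35 ± 0.15 (log2, PMA against As2S2). CDKN1A stood at 70.5 CPM with As2S2, between the other groups, and was higher with PMA (1.62 ± 0.10, adjusted p = 1.00e-09, edgeR). PHGDH, at 505 CPM with As2S2, was lower with PMA (-3.96 ± 0.10), as was MKI67, at 97.8 CPM with As2S2 (-2.26 ± 0.13). ITGB3 stood at 138 CPM and ITGA2B at 570 CPM, both between control and PMA (1.61 ± 0.07 and -0.72 ± 0.08, PMA against As2S2). SRC was lower with PMA than with As2S2 (-1.04 ± 0.11, adjusted p = 5.52e-07, edgeR), and GATA1 did not pass (0.03 ± 0.11). KIT was higher with PMA (1.51 ± 0.13) than with As2S2, where it held 4.88 CPM.

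**Figure D5:**
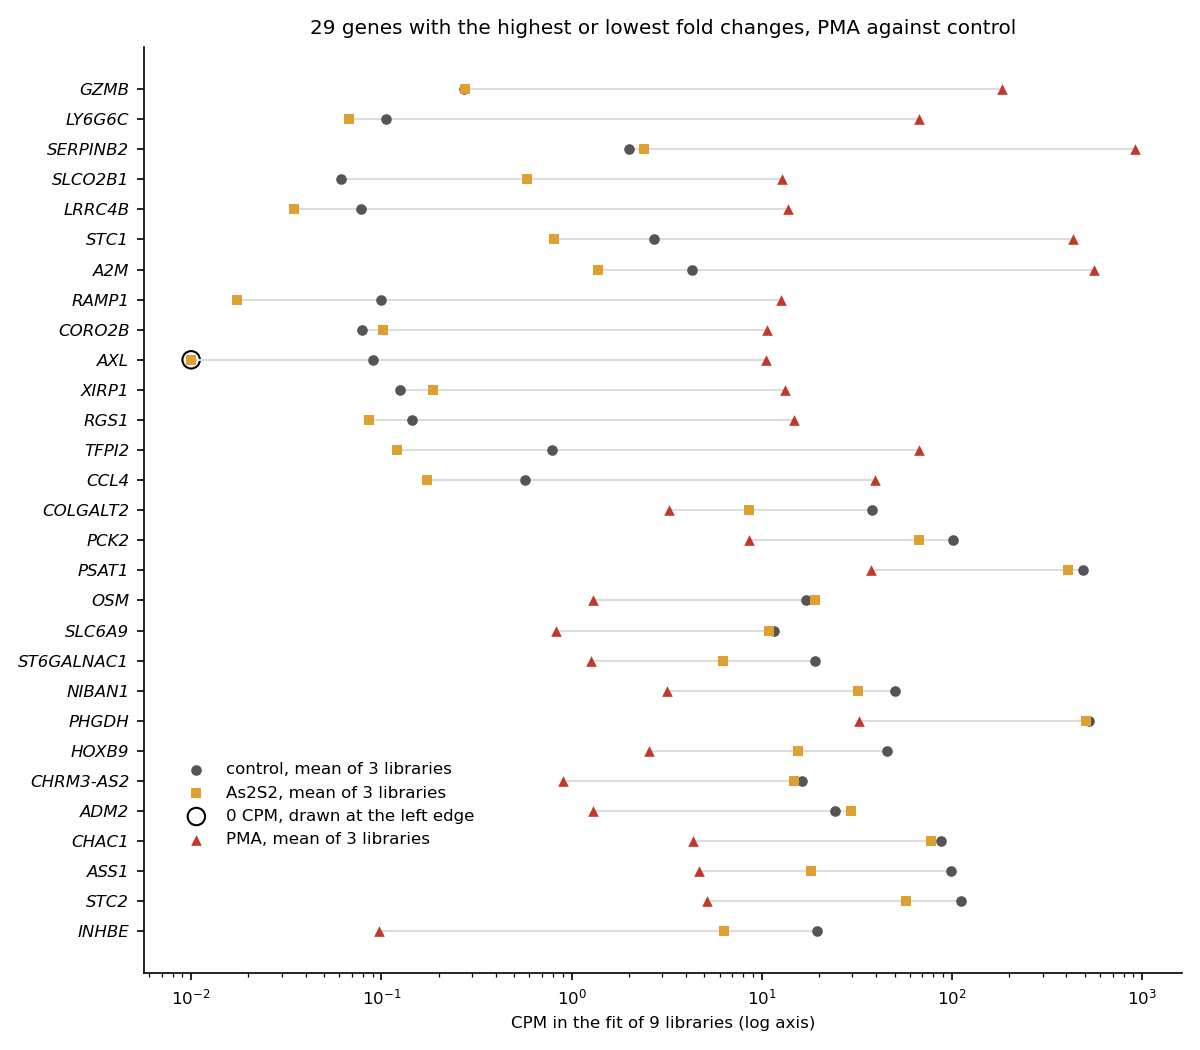
Mean CPM on a log axis (x) in control, As2S2 and PMA libraries (3 each, fit of 9 libraries) of 29 genes (rows) among those that rose or fell most between control and PMA. The As2S2 mean of GZMB is 0.275 CPM against 0.273 in control, while that of ASS1 lies between control and PMA. AXL had 0 CPM with As2S2 and is drawn at the left edge, ringed.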

How the data were processed

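RNA of MEG-01 cells was sequenced after poly(A) selection and NEBNext Ultra II library preparation, per the labels' protocols. The deposited tables hold, for 63241 genes, estimated counts and TPM per library made by the authors. The submitters' processing notes name fastp 0.22.0 and DESeq2. For the aligner, counter, annotation and strand setting: not given in the sources used here. The notes name zebrafish genome builds and the organism label of 1 control sample is not human, while the gene identifiers are human, so no gene coordinates are given other than those of RefSeq promoters (GRCh38.p14).

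Estimated counts were rounded to whole numbers, filtered with filterByExpr, scaled by TMM and tested with edgeR 4.0.16 (quasi-likelihood test, R 4.3.3) over the 6 libraries, or over all 9 for PMA against As2S2. P-values were adjusted by the Benjamini-Hochberg method over all tested genes with a threshold of 0.05. The test gives no SE, so each SE was derived as the size of the log2 fold change over the square root of the F statistic. For genes with few counts the fold change depends on edgeR's prior count, and so does this SE. The authors' fold change and adjusted p columns were not used. Of the 6 libraries' genes, 14170 passed the filter and 35620 had 0 counts. On simulated counts for 14170 genes, 64% of genes changed by 0.5 on the log2 scale, 98% of those changed by 1 and 100% of those changed by 2 were called in the right direction, and 8 of 13434 unchanged genes were called. The simulation drew all genes from control means with a single common spread (biological coefficient of variation 0.0863). It changed only 50, 100 and 50 well-counted genes at these sizes and held no length or GC trend. These rates therefore check the code and do not give the error rates of the real comparison.

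The comparison, its 39 gene lists and the members named were chosen with earlier results of these data known. Named genes are the 15 highest and 15 lowest fold changes among called genes with at least 5 CPM on average and groups that do not overlap, from every list the 4 smallest adjusted p-values and the 2 highest CPM levels, and a fixed set of lineage and signalling genes. Others named were chosen after their values were seen: ANK1, ASNS, AURKA, BATF3, CD36, CDK1, EGR3, EPB42, F5, FOSB, GP1BB, HBA1, HBB, IL11, NR4A3, PDGFB, PLAT, PPBP, PRF1, RASGRP4, RGS4, SLC4A1 and VWF. Some genes and 1 list are not reported here. Alternatives were DESeq2 1.42.0, limma-voom (limma 3.58.1), RLE or upper-quartile scaling in edgeR, other count filters, the replicate block, a fit of 9 libraries and leaving out each library. Plain library totals and removal of length and GC trends were added after seeing the data. Counts that were not whole (tolerance 1e-06) can come from reads shared between genes, which was not tested, as the counter is not given. The values of genes such as HBG1, HBG2, HBE1, SHC1, SOS1, ASNS, ITGB3, TUBB1, MYL6, VCL, TAL1, GP1BB and IFI6, whole in at most 2 of 6 libraries, are taken as less certain.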

Additional observations from a re-analysis of the deposited data

How the results depend on the processing

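With a change of at least 1 on the log2 scale asked for as well, 2964 genes differed between PMA and control (1666 higher, 1298 lower) and 3016 between PMA and As2S2 (1624 higher, 1392 lower). With library totals in place of TMM, 2983 genes were higher and 6436 lower with PMA than in control. Of the 9114 calls, 7560 were shared with that setting, 2 of them in the opposite direction, and 7798 were shared with the length trend removed, 32 in the opposite direction. Leaving out 1 library gave 8205 to 10005 genes against control, the highest without control replicate 2, and 8159 to 8978 against As2S2. The replicate block gave 9063 calls against control (4516 higher, 4547 lower) and 9044 against As2S2 (4501 higher, 4543 lower). Samples with the same number did not deviate together (r = 0.0361, 0.0225 and -0.0112 for numbers 1 to 3 of control and PMA, across genes), so the numbers were not taken to pair the samples.

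Genes near 0 changed direction. With upper-quartile scaling ACTB stood at 0.0223, GATA1 at 0.0163 and PRF1 at 0.0070, and with limma-voom at 0.0042, 0.0016 and 0.044. Without a count filter GATA2 stood at -0.0182 and RELA at -0.0270, with a stricter one ACTB at 0.0109 and GATA1 at 0.0047, and with the block ACTB at 0.0033. With library totals the median over all tested genes was itself -0.26. In that setting BCL2L1 stood at -0.12, GATA2 at -0.23, HBB at -0.11, ITGB1 at -0.12, MAP2K1 at -0.13, PRKCB at -0.0393 and RELA at -0.24. HBB stood at -0.32 with the length trend and at -0.29 with the length and GC trends removed. Over left-out libraries GATA2 ran from -0.0322 to 0.0573, PRF1 from -0.36 to 0.23, RELA from -0.0375 to 0.0653, ACTB from -0.0881 to 0.0965, CCND3 from -0.12 to 0.0469, GATA1 from -0.11 to 0.11 and ITGB1 from -0.0050 to 0.21. The cause was not tested.

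At 18200501 to 20366870 counts per library, genes with a handful of control counts have uncertain fold changes.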
